A study of Homo sapiens with 6 samples.

Results

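The regions described here are 2055 intronic sites of open chromatin that were found in all 6 ATAC-seq libraries of parental and SAP30-knockout MDA-MB-231 cells. ATAC-seq marks open DNA with a transposase that cuts accessible chromatin and inserts sequencing adapters. The peak caller places a summit where the signal of a peak is highest. Every summit was widened by 250 bp on each side, and overlapping windows of the 6 libraries were merged, which gave 56419 loci. A summit was present in all 6 libraries at 16314 of these loci, and 15898 of them lay on chromosomes 1 to 22. The intronic sites were selected on the presence of a summit in every library, and by position. The middle of each lay within a protein-coding gene, in no annotated exon and over 10 kb from every annotated transcription start site. The 2055 sites were 23.3% of the 8822 intronic loci found in any number of libraries. Since a summit was required in each library, a site that was open in 1 group only could not be a member.

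MDA-MB-231 is a human cell line from a triple-negative breast cancer, of mesenchymal character. The Parental group had 3 libraries of unedited cells, and the SAP30-KO1 group had 3 libraries of a CRISPR/Cas9 knockout line. Both were grown in DMEM with fetal bovine serum. SAP30 is a subunit of the SIN3 complex, which is known mainly as a corepressor that brings histone deacetylases to chromatin. The study made its knockout lines from several selected knockout cells that were mixed, so SAP30-KO1 stands for that mixture and not for 1 clone. The comparison of the groups addresses how loss of SAP30 affects chromatin accessibility. Only the knockout line KO1 was measured, so loss of SAP30 cannot be told apart from other differences between it and the parental cells. The labels do not say whether libraries came from separate cultures, so p-values measure the spread between these libraries, which may be technical.

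Open sites within introns and far from a start site are often enhancers, stretches of DNA that transcription factors bind to raise transcription from a promoter at a distance. AP-1 is a family of factors built from FOS and JUN proteins that binds many enhancers of mesenchymal and invasive tumor cells. TEAD factors, the DNA-binding partners of YAP and TAZ, often bind near AP-1 at such enhancers. Intronic enhancers can act on their host gene or on another gene, and a peak list does not show which.

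The libraries held 29762 to 40650 summits. The deposited score of a summit is the −log10 of its q value. Scores of separate lists are not on a common scale, so each score was turned into its percentile rank within its own list, from 0 to 100, where 100 is the strongest summit. The lists hold no read counts, and the depth behind a score is unknown. A lower rank can mean, among other things, that fewer cells were open at a site or that each cell was less open. These cannot be told apart. SAP30 itself, a gene of 7564 bp, was too short to hold a distal intronic site, and its promoter had a summit in every library, with ranks of 84.7, 64.8 and 81.3 in Parental and 71.8, 49.5 and 89.5 in SAP30-KO1. The peak lists therefore do not check the knockout. Of the 3 markers of mesenchymal breast cancer cells, VIM and CD44 had promoter summits in all 6 libraries and AXL in 3. CDH1, PTPRC, CD3E and CDH5, which mark epithelial, blood and endothelial cells, had promoter summits in 0 libraries, but EPCAM, also epithelial, had them in 5. Of the 5 luminal markers, KRT8 and GATA3 had promoter summits in 5 libraries, KRT18 in 3, FOXA1 in 2 and ESR1, the estrogen receptor, in 1. ESR1 held 4 of the intronic sites and GATA3 held 1.

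First, the sequence of some sites is shown, because a short run of letters recurred in it. Each stretch holds the 161 bases round the middle of a site in hg19 (GRCh37), read 5′ to 3′ on the plus strand. Capitals mark the AP-1 letters TGAGTCA or their reverse complement TGACTCA. These 5 sites lie in genes that return below, and each has at least 1 match.
TCF7L2, chr10:114833521-114833681: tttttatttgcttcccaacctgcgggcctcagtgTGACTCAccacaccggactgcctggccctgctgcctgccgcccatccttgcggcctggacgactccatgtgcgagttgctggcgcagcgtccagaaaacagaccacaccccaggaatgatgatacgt
TBC1D5 site 6, chr3:18140567-18140727: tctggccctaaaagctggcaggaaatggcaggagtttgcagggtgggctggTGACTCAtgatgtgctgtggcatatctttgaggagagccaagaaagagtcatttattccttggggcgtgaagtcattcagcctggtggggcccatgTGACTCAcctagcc
EGFR site 3, chr7:55154509-55154669: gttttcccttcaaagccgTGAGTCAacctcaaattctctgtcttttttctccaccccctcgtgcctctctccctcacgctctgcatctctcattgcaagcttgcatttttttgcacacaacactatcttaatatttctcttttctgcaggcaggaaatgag
ERC2 site 3, chr3:56166284-56166444: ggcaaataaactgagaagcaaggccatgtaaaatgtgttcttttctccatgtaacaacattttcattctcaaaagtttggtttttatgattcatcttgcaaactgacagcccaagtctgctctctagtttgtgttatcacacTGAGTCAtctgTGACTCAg
ME3 site 5, chr11:86235330-86235490: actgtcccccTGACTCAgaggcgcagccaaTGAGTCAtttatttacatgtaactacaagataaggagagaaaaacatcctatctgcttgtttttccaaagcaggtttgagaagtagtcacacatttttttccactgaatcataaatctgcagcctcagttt

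In ERC2 site 3, ME3 site 5 and TBC1D5 site 6, 2 matches fell within the 161 bases. The following 3 sites are shown because they differed most between the groups, TRPM3 by the test given further on and NEDD9 and LRRC4C by the change in rank. The AP-1 letters are in 0 of the 3.
NEDD9 site 5, chr6:11219138-11219298: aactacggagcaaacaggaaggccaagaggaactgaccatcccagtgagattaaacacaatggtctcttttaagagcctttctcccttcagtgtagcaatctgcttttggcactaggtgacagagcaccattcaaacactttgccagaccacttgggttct
TRPM3, chr9:73216455-73216615: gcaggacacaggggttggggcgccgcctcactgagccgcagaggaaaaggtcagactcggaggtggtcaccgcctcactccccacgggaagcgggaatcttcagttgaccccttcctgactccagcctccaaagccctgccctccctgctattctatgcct
LRRC4C, chr11:40819683-40819843: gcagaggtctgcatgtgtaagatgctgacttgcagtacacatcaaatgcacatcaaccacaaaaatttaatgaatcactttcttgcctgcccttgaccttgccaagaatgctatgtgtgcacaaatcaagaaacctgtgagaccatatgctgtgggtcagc

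The AP-1 letters stood within 250 bp of the middle of 1090 of the 2055 intronic sites, which is 53.0% (95% Wilson interval 50.9 to 55.2, for counting error only). Of the 2313 shared intergenic sites, also over 10 kb from every start, 52.4% held them. Of the 6925 shared sites within 1 kb of a start site, called promoter sites here, 12.9% did. Among all loci on chromosomes 1 to 22 the share was 35.8%, and among the intronic loci found in 1 library only it was 36.1%. Windows of the same length 5 kb from each intronic site gave 7.45%. At least 2 matches were found in 234 intronic sites, or 11.4%.

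Other factors were searched by fixed letters on both strands, and matches of different motifs may overlap. The TEAD letters GGAATG stood in 40.4% of the intronic sites, against 24.2% of the windows 5 kb away and 32.0% of all loci. The RUNX letters TGTGGTT, bound by the RUNX factors, were in 19.5% against 11% of the windows 5 kb away and 13.2% of all loci. The FOX letters TGTTTAC were in 11.5% against 8.03% and 8.35%. The letters searched for GATA factors, AGATAAG, were in 6.52%, near the 7.10% of the windows 5 kb away. The letters CAGGGGGC and TAGGGGGC, a core of the site of the insulator protein CTCF, were in 2.82% of the intronic sites, 1.41% of the windows 5 kb away and 10.4% of promoter sites. The SP letters GGGGCGGGG were in 1.56% of intronic sites and 29.4% of promoter sites, and the ETS letters CCGGAAGT were in 0.779% and 8.23%. Base composition differed between these sets. The median GC content was 45.9% in intronic sites, 64.5% in promoter sites and 40.7% in the windows 5 kb away. A match is a run of letters and was not tested as a binding site.

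The AP-1 letters were concentrated at the middle of the sites. There were 3.28 and 3.19 matches per kb in the 50 bp on either side of the middle, and 0.146 and 0.234 per kb in the outermost 50 bp, from 450 to 500 bp away. TEAD letters rose from 0.642 and 0.623 per kb in those outer bins to 1.40 and 1.53 per kb at the middle. Round the median summit of a site, the AP-1 profile was flatter and had no central peak. It had 1.76 and 1.64 matches per kb in the central 50 bp bins, and 1.67 and 1.79 from 100 to 150 bp away. The summits themselves lay to the side of the letters. In the 856 sites with a single AP-1 match, the median distance between the match and a library's own summit was 126 to 134 bp over the 6 libraries. Between 11.2% and 13.6% of the summits of a library lay within 50 bp of the match, and 70.8% to 74.5% lay 50 to 200 bp from it. Summits fell on the left of the match in 50.6% to 52.1% of these sites. In 685 of the 856 sites the 6 libraries placed summits on both sides. The middle of a site lies between its outermost summits by construction. The summits of the 6 libraries spanned a median of 305 bp within an intronic site, and 7.15% of sites had them all within 100 bp.

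**Figure D1:**
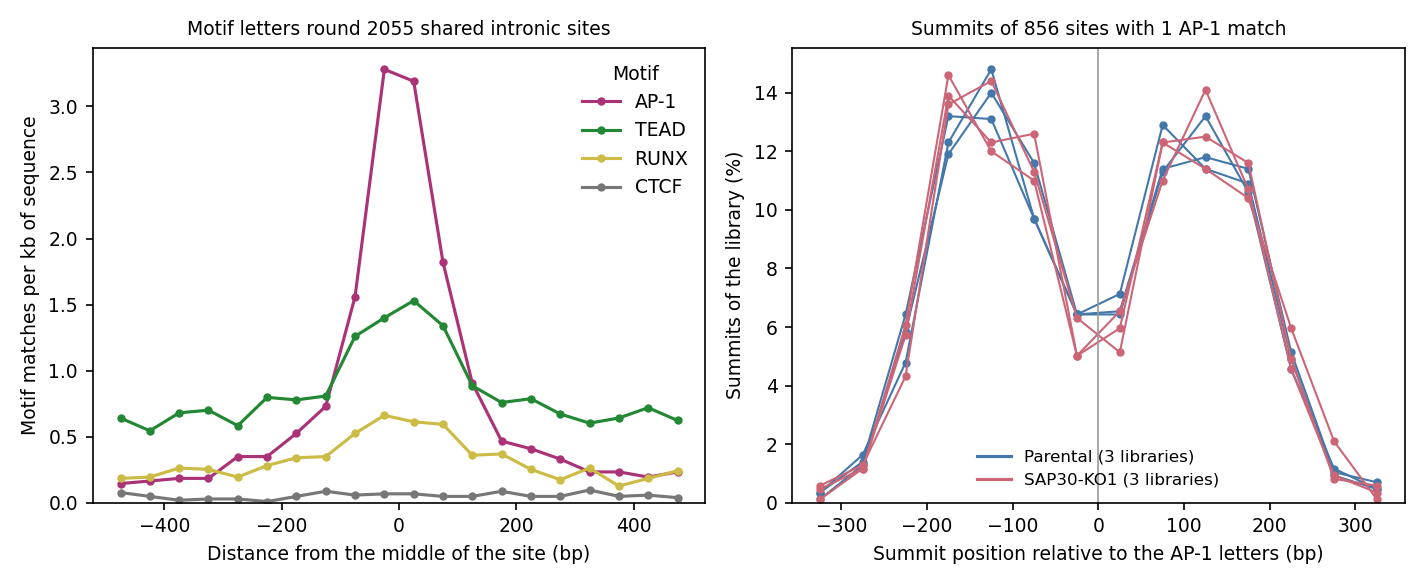
Left, matches per kb of the letters of 4 motifs against the distance in bp from the middle of the 2055 shared intronic sites, in bins of 50 bp. Right, for the 856 sites with 1 AP-1 match, the percentage of each library's summits (1 line per library) by position relative to the match: AP-1 matches peak at 3.28 per kb at the middle, and in all 6 libraries fewer summits lie at the match than about 125 bp to either side of it.

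The share of sites with AP-1 letters followed the strength of the sites. The sites were ordered by their mean rank over the 6 libraries and split into 4 groups of 513 or 514. From the lowest to the highest group, 46.5%, 51.8%, 56.5% and 57.4% held the letters. Of the 134 sites that ranked above 90 in all 6 libraries, 61.2% did. The median of the mean rank was 67.5 for the 965 sites without AP-1 letters, 70.5 for the 856 with 1 match and 73.1 for the 234 with more. These are descriptions of sites that share libraries.

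The sites were moderately strong. The median of the mean rank was 69.3, against 45.5 for the 836 intronic loci found in 5 libraries and 18.1 for the 2878 found in 1, which follows in part from requiring a summit in every library. Of the 2055 sites, 940 ranked above 50 in all 6 libraries and 24 below 50 in all 6. The highest mean ranks, in HFM1 and SLCO5A1, belonged to windows in which 79.8% and 57.3% of 31-base words occurred elsewhere in the genome, and 22 sites (1.07%) had over 50% of such words. Other sites of very high rank lay in ANKS1B, whose lowest rank in the 6 libraries was 99.6, NFIA, a transcription factor of the NFI family, with 99.3, and TCF7L2, the factor that works with beta-catenin in Wnt signaling, with 98.8. The median distance to the nearest start site was 22.9 kb and the largest 367 kb. The sites closest to the limit were in CNIH3 at 10005 bp and HMGA2 at 10027 bp, with mean ranks in Parental of 99.0 and 49.8, and the shared site in RAP1GAP2 at 9985 bp, with 73.6, fell outside.

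Next, the host genes were counted. Sequence that met the position rule, called eligible intron here, amounted to 563 Mb in 8752 genes, and 1318 of these genes, 15.1%, held at least 1 site. The density was 3.65 sites per Mb, against 3.28 per Mb in the 705 Mb of intergenic sequence that was over 10 kb from every start. First introns held 24.2% of the sites and 19.5% of the eligible intron. Of the 1318 host genes, 878 had 1 site, 242 had 2, 110 had 3, 39 had 4 and 49 had 5 or more. A promoter summit was present in all 6 libraries in 53.2% of host genes and in 43.5% of eligible genes without a site. Among genes with over 50 kb of eligible intron, these shares were 55.9% of 970 and 42.9% of 1665. In 242 host genes, 18.4%, no library had a promoter summit. The share of hosts rose with the length of eligible intron, from 3.03% of 4125 genes with up to 20 kb to 16.2% of 3215 with 20 to 100 kb, 41.6% of 1009 with 100 to 300 kb and 62.3% of 403 with more. The density did not rise with it, at 0.401, 0.430, 0.437 and 0.272 sites per 100 kb in the same order. Sites had a neighbour among the 2055 within 50 kb in 34.1% of cases and within 10 kb in 9.83%, and the median distance to the nearest was 128 kb.

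Long genes led the count. TBC1D5, a regulator of retromer and endosomal trafficking, held 12 sites in 938 kb of eligible intron. ZNF385D, a zinc finger gene, held 10, and its promoters had no summit in any library. PDE4D, a phosphodiesterase that degrades cyclic AMP, also held 10, and EXT1, which polymerizes heparan sulfate, held 9. P3H2, a collagen prolyl hydroxylase, ME3, a mitochondrial malic enzyme, NAV2, ERC2, a scaffold protein of the presynaptic active zone, ZFPM2, a cofactor of GATA factors, and RBMS3 held 7 each. The 7 sites of RBMS3 were counted also for an overlapping gene, ENSG00000283563, and 79 of the 2055 sites lay in more than 1 gene. Per length, the order changed. Among genes with at least 4 sites and 50 kb of eligible intron, LRRC8D, a subunit of volume-regulated anion channels, had 6.85 sites per 100 kb, P3H2 had 6.59, CPE 5.85, NEDD9, a scaffold of focal adhesions, 5.63, GNG12 5.18, EGFR, the epidermal growth factor receptor, 4.68, HIVEP2 4.66 and MB21D2 4.62. The density over all eligible genes was 0.369 per 100 kb.

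Within a gene the sites ranged from weak to strong. In ZNF385D, sites 6, 7 and 8 ranked at 97 or higher in every library, while site 3 had ranks of 34.3, 46.3 and 26.8 in Parental and 76.5, 63.1 and 84.2 in SAP30-KO1. In PDE4D, site 2 ranked at 90.9 or higher in every library, while site 1 had ranks of 18.7, 53.5 and 61.1 in Parental and 79.3, 77.1 and 91.1 in SAP30-KO1. The P3H2 sites had no common direction. Site 1 had ranks of 67.6, 42.5 and 48.6 against 72, 80.8 and 76.9, and site 6 had 40.8, 63.6 and 67.7 against 41.8, 49.3 and 39. Its site 7 ranked from 82.9 to 98.8 in the 6 libraries, and the groups overlapped. In ME3, site 1 ranked at 96 or higher in every library, and site 7 had 77.1, 87.4 and 70.4 in Parental and 41.8, 49.8 and 6.31 in SAP30-KO1.

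Gene lists differed in how densely they held sites. Of 23 eligible genes for adhesion and matrix receptors, 10 had a site, and the density was 1.26 per 100 kb. The sites were in LPP (6), COL4A2 (3), ITGA2 (3), ITGA6 (2), CDH2, CTNNA1, ITGA1, LAMC1, PTK2 and TLN2 (1 each). Of 28 receptors and kinases, 11 had a site, at 0.538 per 100 kb, with 5 in EGFR, 4 in PRKCE and 3 each in ERBB4 and PDGFC. TGF-beta genes had 5 of 19, at 0.696 per 100 kb, with 3 in LTBP1 and 2 each in TGFB2 and TGFBR3. Among the YAP, TEAD and AP-1 factors 5 of 15 had a site, at 0.621 per 100 kb, and these were AMOTL1, TEAD1, ATF3, FOSL2 and TEAD3. Of 15 genes of the SIN3 complex and MLL, 1 had sites, TET1 with 2. Their eligible intron was only 0.410 Mb, which gave 0.488 per 100 kb.

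Of the 9 targets that the study followed as regulated by SAP30, 4 had eligible intron. RDX, the actin-membrane linker radixin, held 3 sites, and PDGFD, a platelet-derived growth factor, held 2. The study chose these targets with its own experiments on these cells, so their direction is not independent evidence. Lists of genes of other cell types were counted too. Long neuronal and muscle genes had a site in 13 of 23 but a density of only 0.109 per 100 kb. Blood and immune genes had 4 of 23 and 0.373 per 100 kb, with 3 sites in FLI1, 2 each in EBF1 and ELMO1 and 1 in DOCK2. The lists are small and were not tested against each other. In the comparison of the groups given next, the median over a list's host genes of the difference in rank was -15.5 points for YAP, TEAD and AP-1 factors, -13.0 for the followed targets, -6.27 for TGF-beta genes, -4.78 for receptors and kinases, -3.76 for adhesion genes and 0.226 over all 1318 host genes. It was 0.871 for neuronal and muscle genes and -4.10 for blood genes.

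**Figure D2:**
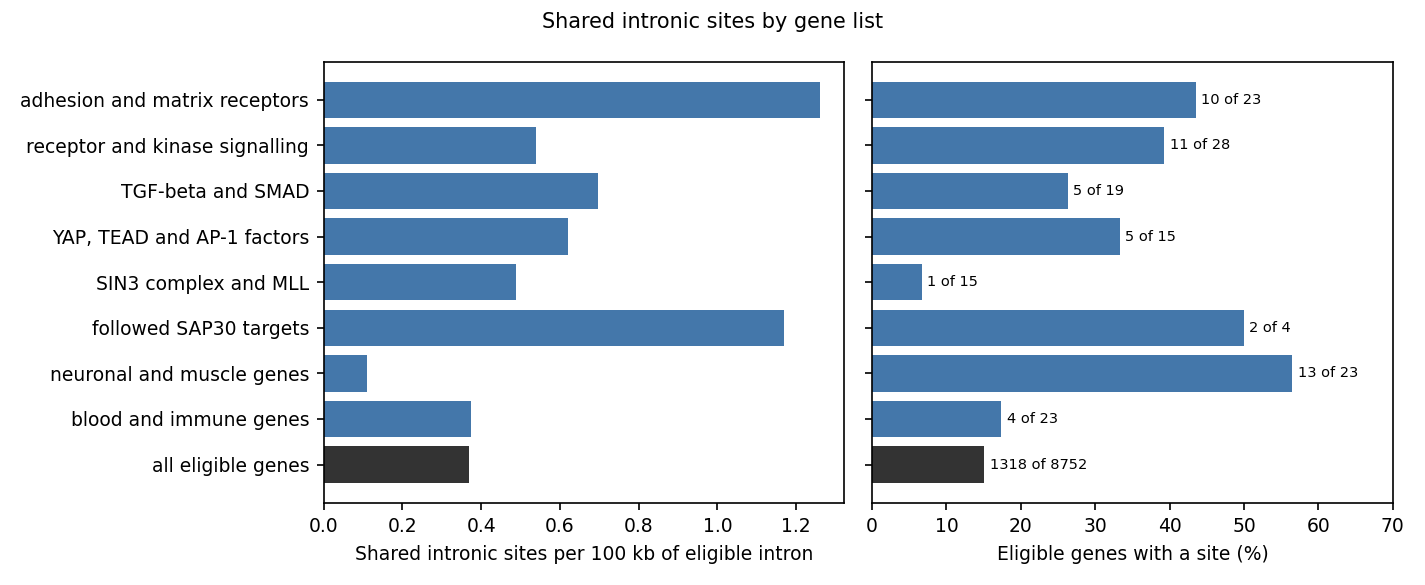
Left, shared intronic sites per 100 kb of eligible intron for each gene list and for all eligible genes (black bar, 0.369). Right, the percentage of eligible genes with at least 1 site, with the counts printed at the bars: the neuronal and muscle list combines a high share of hosts, 13 of 23, with the lowest density, 0.109.

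Next, Parental and SAP30-KO1 were compared at these sites. No shift of the sites as a whole was detected. The median rank over the 2055 sites came to 75, 70.6 and 72.9 for Parental and to 69.6, 77.5 and 73.2 for SAP30-KO1. The groups overlapped, with means of 72.9 ± 2.20 and 73.4 ± 3.93 (SD, n = 3 each), and the difference of 0.571 points had p = 0.900 in a two-sided exact permutation test. The smallest p that the exact permutation test allows for 3 against 3 libraries is 0.10. Intergenic sites differed by 1.63 points (p = 0.700, same exact test) and promoter sites by -0.0236 points (p = 1, same exact test). The intronic median minus the promoter median was -1.42 ± 0.878 in Parental and -0.824 ± 0.698 in SAP30-KO1, a difference of 0.595 points (p = 0.4, same exact test). The intronic minus the intergenic median was lower in all 3 SAP30-KO1 libraries (-1.34, -0.722 and -2.02) than in the Parental libraries (-0.681, -0.582 and 0.356). The difference of -1.06 points had p = 0.100 by the same exact test, the smallest it can give, so it did not reach significance. Unlike the difference to promoter sites, this comparison was not planned, and it was not recomputed under other settings.

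**Figure D3:**
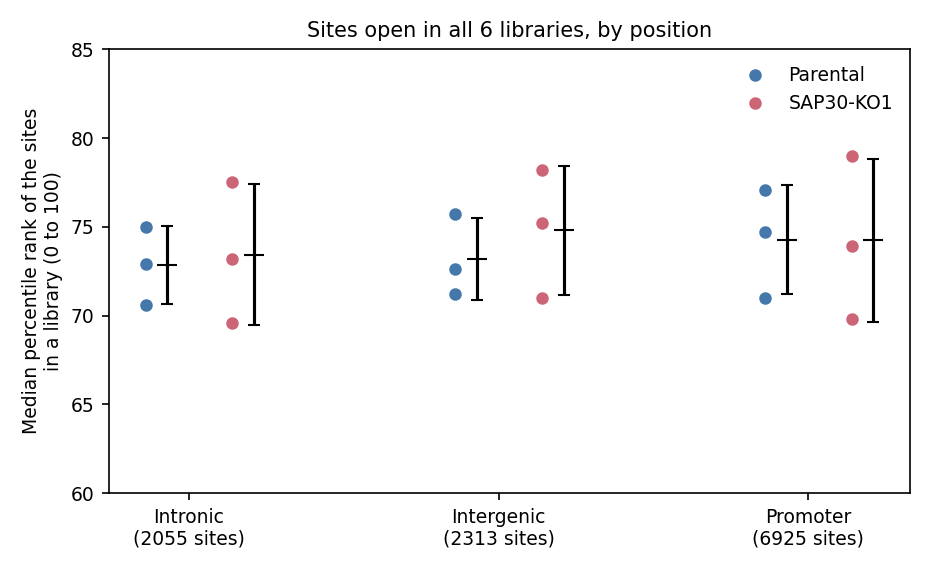
Median percentile rank (0 to 100) in each library of sites open in all 6 libraries, by position. Points are libraries and bars are the mean ± SD of 3; the axis starts at 60. In every class the Parental and SAP30-KO1 libraries overlap, with intronic means of 72.9 and 73.4.

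The groups overlapped whether or not a site held AP-1 letters. The 965 sites without a match had mean library medians of 71 ± 2.34 in Parental and 72.1 ± 3.74 in SAP30-KO1 (n = 3 each), a difference of 1.16 points (exact permutation test, p = 0.700). The 856 sites with 1 match had 73.7 ± 2.16 and 74.1 ± 3.69, and the 234 sites with more had 76.4 ± 2.26 and 76.3 ± 4.66.

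Single sites differed in both directions. The mean rank was lower in SAP30-KO1 at 1008 sites and higher at 1047, and the middle 90% of the differences ran from -24.1 to 26.7 points. The median SD of a site over 3 libraries was 10.6 points in either group. All 3 SAP30-KO1 libraries lay below all 3 Parental libraries at 175 sites, or 8.52%, where 7.08% of all 16314 shared loci did. They lay above at 210 sites, or 10.2%, where 8.58% of all shared loci did. With 1 library left out in turn, 260 to 355 sites lay below and 271 to 370 above, and the shares of all shared loci were 10.3% to 15.0% and 11.1% to 15.9%. The limma test across all 16314 shared loci called 0 of the 2055 sites on the rank at an adjusted p under 0.05, as it called 0% of all loci, and the lowest Benjamini-Hochberg adjusted p was 0.377. At an unadjusted p under 0.05, 113 sites (5.50%) were lower against 4.12% of all loci, and 130 (6.33%) were higher against 5.14%. Both shares were near those of all loci.

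The calls depended on the scale of the test. On the log2 of the deposited score, centred in each library on the median of the shared loci, limma called 10 intronic sites lower in SAP30-KO1 (0.487%, where 0.490% of all loci were called lower) and 25 higher (1.22%, where 0.595% of all loci were). Among 2313 intergenic sites the same fit called 13 lower and 25 higher, and among 6925 promoter sites 31 lower and 11 higher. Of the 35 intronic calls, 14 also passed on normal scores of the rank, which called 3 sites lower, where 0.208% of all loci were called, and 11 higher, where 0.331% of all loci were. With 1 library left out in turn, the log2 fit called 1 to 6 sites lower and 6 to 17 higher, and 18 to 52 and 29 to 62 of all loci. Adjusted p-values are those of limma on the log2 score with Benjamini-Hochberg adjustment over 16314 loci.

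The lowest adjusted p belonged to TRPM3, a cation channel of the TRP family. The deposited scores of its site at chr9:73216055-73217015 were 5.99, 5.41 and 4.37 in Parental and 20.7, 22 and 23.7 in SAP30-KO1, so the groups were far apart. The log2 difference was 1.97 (SE 0.29, adjusted p = 2.68e-05). Both other TRPM3 sites had ranks above 87 in every library. At EDIL3, an integrin ligand of the extracellular matrix, the scores at chr5:83514149-83515021 were 9.84, 7.23 and 11.4 in Parental and 23.9, 26.7 and 31 in SAP30-KO1, a log2 difference of 1.42 (SE 0.24, adjusted p = 0.000352). In ESR1, 1 of the 4 sites rose, at chr6:152221983-152222646, from scores of 11.1, 11.1 and 7.09 to 25.1, 29.6 and 24.8 (log2 difference 1.35, SE 0.24, adjusted p = 0.000699). Its ranks in SAP30-KO1 were 99.4, 99.3 and 99.0.

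Several further sites that rose had low scores in Parental. LRRC4C, a netrin-G ligand of synapses, had scores of 3.47, 3.54 and 2.32 in Parental and 12.4, 11.9 and 9.21 in SAP30-KO1 at chr11:40819328-40820198, which lies on 11p (log2 difference 1.74, SE 0.37). Its ranks went from 15.8, 12.7 and 2.71 to 89.5, 82.1 and 74.9, the largest rise in rank of all sites off 11q. SDK1, a synaptic adhesion protein, and SLC35F4, a solute carrier, rose by 1.74 and 1.70 on the log2 scale. In order of size, the other calls in this direction were made at LSAMP, a neuronal adhesion protein, and ZNF474 (1.48 each), TRPM6, a magnesium channel (1.46), JAKMIP2 (1.41), LRRC7, a postsynaptic scaffold (1.40), EBF1, a factor of B cells and mesenchyme (1.38), RABGAP1L and SYT16 (1.29 each). Smaller differences were called at ROBO1, the Slit receptor (1.22), KCNIP4 (1.14), GPC5, a glypican (1.13), BCAR3 and GRIA2, a glutamate receptor subunit (1.12 each), TGM2, a transglutaminase (1.11), MACROD2 (1.09), MCC (1.06), ANKS1B (0.99), NRXN3, a presynaptic adhesion protein (0.89), and IMMP2L (0.81). Of the 25 sites called higher, 10 held AP-1 letters within 250 bp of the middle, where 53.0% of all the intronic sites did.

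Among the 10 sites called lower, NEDD9 site 5 at chr6:11218908-11219528 moved most. Its scores were 10.5, 10.8 and 14.3 in Parental and 2.42, 5.95 and 2.38 in SAP30-KO1, a log2 difference of -1.97 (SE 0.37, adjusted p = 0.00105). The other NEDD9 sites were not called. Their rank differences ran from -7.12 to 16.7 points, and site 6, the nearest to it, had ranks of 78.8, 62.4 and 79.7 in Parental and 85.4, 80.9 and 82 in SAP30-KO1, with separate ranges in the opposite direction. MAN2A1, a Golgi mannosidase, had scores of 11.2, 19.3 and 6.19 in Parental and 5.00, 5.04 and 3.83 in SAP30-KO1 (log2 difference -1.38, adjusted p = 0.0380). MAL2, an endocytic protein of epithelial cells, FRMD4A, ZNF131 and PTPN14, a phosphatase that restrains YAP, were also called lower, by -1.30, -1.25, -1.21 and -0.93. The remaining 4 calls lay on 11q, and they were SYTL2, NTM and 2 sites of FLI1. AP-1 letters were found in 0 of these 10 windows, and in 88 of the 175 sites (50.3%) whose ranks in SAP30-KO1 lay below those in Parental.

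**Figure D4:**
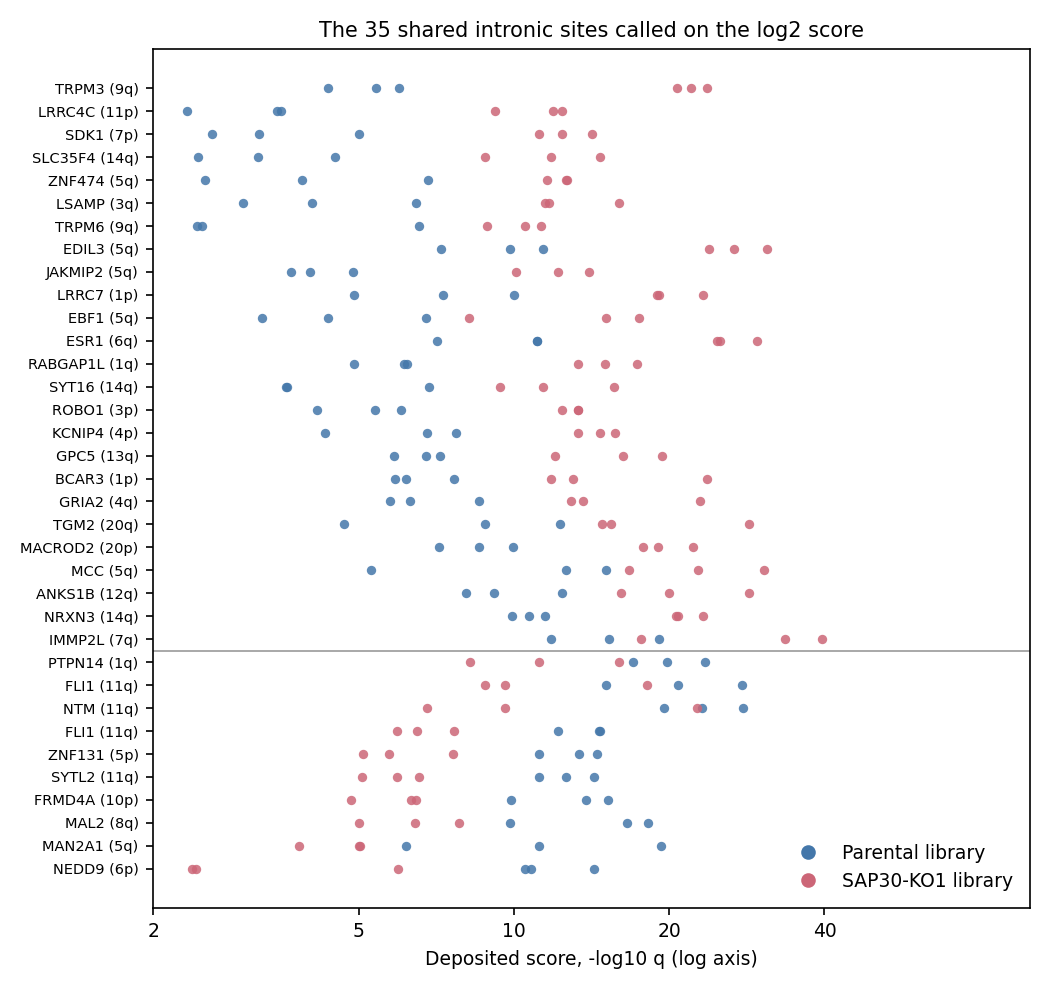
Deposited scores (−log10 q, log axis) in each of the 6 libraries at the 35 shared intronic sites that limma called on the log2 score, with the chromosome arm in brackets. Rows under the grey line are the 10 sites lower in SAP30-KO1 and rows over it the 25 higher ones. TRPM3, at the top, had 4.37 to 5.99 in Parental and 20.7 to 23.7 in SAP30-KO1.

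In some genes all sites differed in the same direction. Of the 49 genes with 5 or more sites, all sites had a higher mean rank in SAP30-KO1 in 2 genes and a lower one in 5. Of the 198 genes with 3 or more sites, all were higher in 28 and lower in 27, so neither direction led there. ERC2 was one with all 7 sites higher, by a median of 29.0 points. At its site 6 the ranks were 14.7, 18.2 and 49.6 in Parental and 89.8, 79.0 and 76.3 in SAP30-KO1. At site 5 they were 23, 14 and 63.2 against 84.5, 90.5 and 75.1. Sites 2, 3 and 7, which were stronger in Parental, differed by 3.24, 7.04 and 3.15 points, and their groups overlapped. TMEM132D, a transmembrane protein gene whose promoters had no summit in any library, had all 6 sites higher, by a median of 23 points, and site 5 differed by 0.0875. KCNIP4, a potassium channel interacting protein, had a median of 22.6 points with 4 of 6 sites higher, LRRC7 had 21.9 with 4 of 5, and MB21D2 had 17.4 with 4 of 5. ERC2 lies on 3p, MB21D2 on 3q, LRRC7 on 1p and KCNIP4 on 4p, arms whose library medians were also higher in all 3 SAP30-KO1 libraries than in Parental, as given further on. The part of the arm in these values was not tested.

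In the other direction, the 5 sites of PTPN14 were all lower, by a median of -15.4 points, and so were those of GPC6, a glypican (-12.4), PLXNA2, a semaphorin receptor (-10.4), and ADAM12, a metalloprotease (-8.85). PTPN14 site 2 had ranks of 97.4, 98.7 and 96.1 in Parental and 71.1, 91.6 and 83.5 in SAP30-KO1. GRM5, a glutamate receptor, had 4 of 5 sites lower and a median of -22.9 points, and all 7 sites of ME3 were lower, with a median of -8.68. Both lie on 11q. EGFR had 4 of 5 sites lower, with a median of -6.57 points, and at its site 4 the ranks were 86.9, 91.4 and 93.2 in Parental and 83.5, 79.4 and 84.3 in SAP30-KO1. In TBC1D5, also on 3p, 10 of 12 sites were higher, with a median of 11.2 points, and at site 7 the ranks were 49.5, 25.3 and 10.8 in Parental and 87.4, 65.8 and 66.3 in SAP30-KO1. Sites of 1 gene share their libraries and their stretch of chromosome, and genes were not tested.

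**Figure D5:**
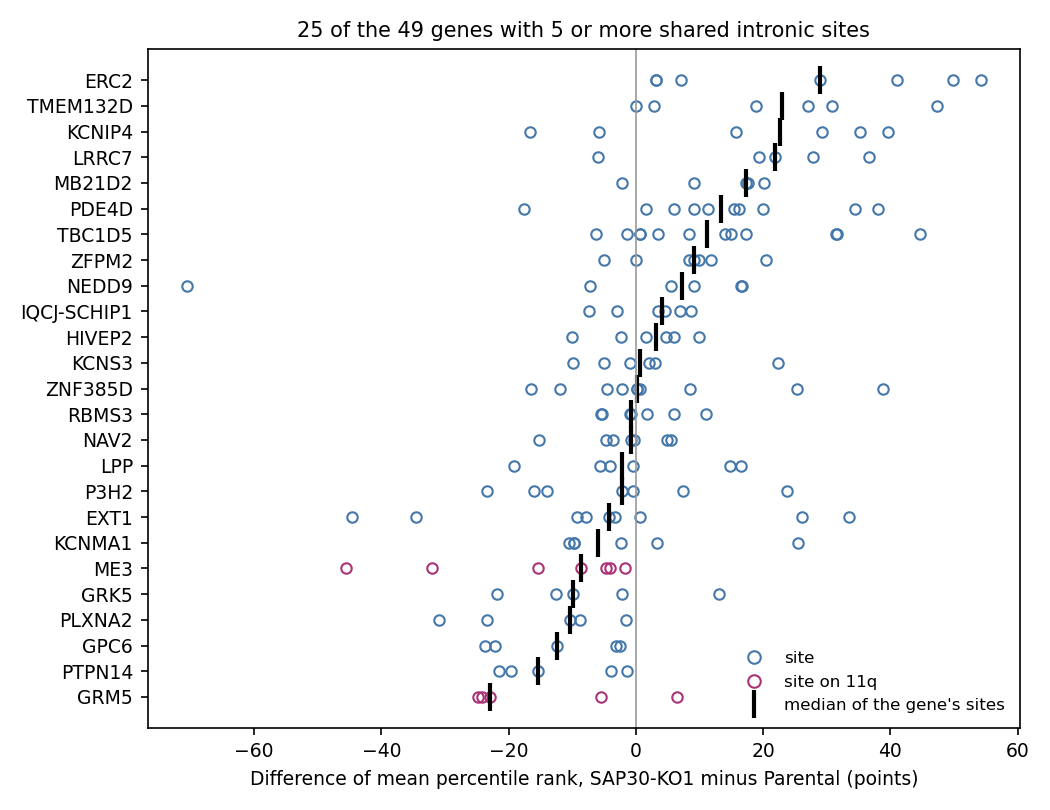
Difference of the mean percentile rank (SAP30-KO1 minus Parental, in points) for each site (circles) of 25 of the 49 genes with 5 or more shared intronic sites, with the median of the gene's sites as a black bar. Purple circles are genes on 11q. All 7 ERC2 sites lie above 0, all 7 ME3 sites below, and NEDD9 has 1 site at -70.5 with the others between -7.12 and 16.7.

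The long arm of chromosome 11 stood apart from the other arms. On 11q the 61 intronic sites had library medians of 88.0, 85.1 and 85.7 in Parental and 57.2, 72.3 and 67.5 in SAP30-KO1, and the groups did not overlap. The rank was lower in SAP30-KO1 at 53 of the 61 sites, and the median site difference was -16.0 points. Separate ranges in that direction were found at 27 sites (44.3%), where 7.08% of all 16314 shared loci had them. The share among all shared loci on 11q was not computed. Taking 11q out lowered the share of all shared loci from 7.08% of 16314 to 6.15% of 15860. The 27 intronic sites are too few for that drop, so shared loci of other positions on 11q also lay lower. Whether intronic sites on the arm differ from those was not tested. Over the 29 arms with at least 20 sites, 6 had library medians that did not overlap between groups. Those were 11q, which was lower, and 1p, 3p, 3q, 4p and 7p, which were higher. On 1p the 118 sites had library medians of 68.3, 65.7 and 66.3 in Parental and 78.2, 82.3 and 79 in SAP30-KO1. Of these sites, 29 (24.6%) had separate ranges upwards and 2 downwards, where 8.58% of all shared loci had them upwards. The share among all shared loci on 1p was not computed either. The median site difference on 1p was 4.62 points, smaller in size than that on 11q. No arm passed adjustment over the 29 arms (exact permutation tests, lowest adjusted p = 0.483), as 3 against 3 libraries cannot. Without 11q, 148 of 1994 sites (7.42%) lay lower and 209 (10.5%) higher with separate ranges, where 6.15% and 8.80% of all shared loci off 11q did.

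The study's followed genes with sites, RDX and PDGFD, both lie on 11q. The ranks of the RDX sites were 96.5, 95.5 and 90.6 in Parental and 87.3, 87.5 and 63.6 in SAP30-KO1 at chr11:109870493-109871351, 97.0, 95.2 and 94.7 against 74.2, 94.4 and 77.1 at chr11:109939908-109940640, and 80.8, 68.4 and 70.1 against 14.9, 57.4 and 38.5 at chr11:110064803-110065591. All 3 had separate ranges, as 44.3% of the sites on the arm did. At PDGFD the site at chr11:104005239-104006020 had 97.2, 88.1 and 92.9 against 66.6, 78.9 and 85.6, and at the other the groups overlapped. AMOTL1, a partner of YAP, had 82.4, 66.3 and 80.6 against 35.3, 32.4 and 56.5 at chr11:94578546-94579403. FLI1, an ETS factor of blood and endothelial cells, had 92.6, 92.4 and 89.4 against 49.9, 49.6 and 64.2 at chr11:128579128-128579890. Of the sites on 11q only TENM4 had separate ranges in the opposite direction, with 89.4, 87.1 and 81.6 in Parental and 95.7, 97.0 and 91.5 in SAP30-KO1. Whether the number of copies of the arm differs between the lines was not tested.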

How the data were processed

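ATAC-seq was measured in 3 Parental and 3 SAP30-KO1 libraries, grouped by their labels. The authors sequenced single-end reads, trimmed them with Trim Galore 0.4.5, aligned them to hg19 with Bowtie2 2.3.3.1, removed duplicates with Picard and called peaks in MACS2 2.1.0 at a q value of 0.05. Read shifting, blacklists and mitochondrial reads are not given in the sources used here. The deposited values are summit positions with a −log10 q score in 1 list per library, so depth is unknown. Whether reads were shifted sets where a summit falls.

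Summits were widened by 250 bp on each side and merged, and annotated with GENCODE release 44 mapped to GRCh37, whose sequence was used for motifs. The percentile rank was taken within each list (scipy 1.17.1), as the highest where a site held several summits. Ranks of all 16314 shared loci were fitted in limma 3.58.1 (R 4.3.3) with Benjamini-Hochberg adjustment, after a test on simulated data. Exact permutation tests over the 20 possible assignments were run on library medians (numpy 2.4.6). Named genes are those with the most sites, the densest and the most shifted, and named sites are the strongest and the most different on the rank or called on the log2 score. The members and lists were chosen with earlier results of these data known. The profile round the middle of the sites, and the fits without repeated sites and without single libraries on the log2 score, were chosen after seeing the data. Some items that the rules would name are not reported here.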

Additional observations from a re-analysis of the deposited data

How the results depend on the processing

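Of the results recomputed, the share of sites with AP-1 letters stayed within its counting interval under every setting except a search for the letters within only 100 bp of the middle, where it was 42.0%. The number of sites was 1181 with over 20 kb from start sites and 2090 to 2284 with 1 library left out. The median rank difference was small and changed sign when the same number of top-ranked summits was taken from each list (-0.227) and after centring the rank on all shared loci (-0.0326), and it ran from -1.64 to 2.03 with 1 library left out, being negative without Parental replicate 2 or SAP30-KO1 replicate 2 (-0.136 and -1.64). The largest median rank difference was 2.52, with summits of a q value of 0.0001 or less. The intronic minus promoter difference ran from -0.224 to 1.48 with 1 library left out, negative without SAP30-KO1 replicate 1. It was 1.49 over 20 kb from start sites. Sites with separate ranges numbered 91 lower and 131 higher over 20 kb from start sites, where 7.08% and 8.58% of all shared loci had them. With summits widened by 100 bp, 134 were higher, where 8.45% of all shared loci were. With 1 library left out, 260 to 355 were lower and 271 to 370 higher, as fewer libraries have to separate. The shares of all shared loci rose too, to 10.3% to 15.0% lower and 11.1% to 15.9% higher. At an adjusted p under 0.05, limma called 10 lower and 25 higher on the log2 score, 3 lower and 11 higher on normal scores, and 0 in each direction under the other settings of the fit on the rank, including each library left out. Without the 22 sites of repeated sequence the median rank difference was 0.666.

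The replicate numbers are the labels' own and nothing ties a number to a shared culture. Deviations of same-numbered libraries correlated at -0.0179, -0.0127 and -0.00320, so no pairing by number was seen in the ranks. Ranks within a list remove shifts of a whole library, so a shared culture is not excluded. With the replicate block the median rank difference was 0.571 (exact sign-flip permutation test, p = 0.750, where 0.25 is the smallest 3 pairs allow) and limma called 0 sites. With no read counts, the error of a score in 1 library cannot be given.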
